A study of Rattus norvegicus with 12 samples.

Results

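Heat shock and endoplasmic reticulum (ER) chaperone transcripts were compared between the livers of ethanol-drinking and water-drinking rats. The members are all rows of the liver RPKM table whose gene name begins with Hspa, Hspb, Hspd, Hspe, Hsph or Hsp90, with Dnaja, Dnajb or Dnajc, or with Pdia, each with a number, together with Hyou1, Creld2, Sdf2l1, Calr and Herpud1, where at least 1 liver had an RPKM above 0. RPKM is a read count scaled by transcript length and by the mapped reads of the library. With 1 transcript kept per gene, the one with the highest mean, 68 members were found among the 21718 transcripts above 0, out of 34391 listed. Of the 68, 28 were classed as encoding proteins of the cytosol or nucleus, 20 proteins of the ER and 8 of mitochondria. Another 11, Dnajc12 among them, were put in none of these classes and are called other. Herpud1, an ER stress gene that encodes no chaperone, was counted apart.

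All 12 animals were adult females of iP10a, an inbred line derived from alcohol-preferring (P) rats. The 6 EtOH animals had free choice of water and of ethanol at 10%, 20% and 30% (v/v) for 23 weeks, and the 6 control animals had water only. Livers were taken at 38 weeks of age, except that of EtOH animal 6, whose label gives 39 weeks. Each library came from the whole-liver RNA of 1 animal of 1 sex and 1 inbred line, and intake was voluntary, so the groups describe no set dose. In bulk liver, fewer cells of a type and less RNA per cell cannot be told apart.

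Chaperones bind unfolded proteins and help them to fold or pass them on for degradation. HSP70 proteins do so in cycles of ATP hydrolysis that J-domain proteins (the Dnaj genes) start and nucleotide exchange factors end, HSP90 proteins act later on nearly folded clients, and small heat shock proteins hold unfolded clients without ATP. In the cytosol the set is raised by heat shock factor 1 (HSF1) through heat shock elements, whereas in the ER it is raised by the unfolded protein response through ATF6, XBP1 and the ER stress response element (ERSE). Hepatocytes secrete most plasma proteins and carry a large ER.

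Promoter sequence is shown for members with and without a change, since it holds the elements through which either programme acts. Windows of 250 bases before to 50 bases after the gene start, from RefSeq on GRCr8, were matched for 53 of the 68 members, and both strands were searched. The ERSE, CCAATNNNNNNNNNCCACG, stood in 5 of 19 matched ER members and in 0 of 21 matched cytosolic members, beside 0.0657% of all 33469 promoters of the same length. It includes a CCAAT box by construction, and CCAAT alone stood in 37.5% of all promoters. The ERSE holders were Hspa5, Hsp90b1, Calr, Creld2 and Dnajc3, of which 3 are shown with the ERSE in capitals.
Hspa5, chr3:38452953-38453011, + strand: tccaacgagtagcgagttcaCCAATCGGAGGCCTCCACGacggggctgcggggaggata
Hsp90b1, chr7:23012431-23012489, - strand: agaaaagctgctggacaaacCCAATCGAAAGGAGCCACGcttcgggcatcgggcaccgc
Dnajc3, chr15:102432514-102432572, + strand: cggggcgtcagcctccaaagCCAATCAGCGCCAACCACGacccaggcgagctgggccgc

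A related element, ERSE-II, ATTGGNCCACG, stood in 0.0508% of all promoters and in those of Hyou1, Dnajb11 and Herpud1. Its first 5 letters are a CCAAT box on the other strand. The windows of Hyou1 and Herpud1 are shown with ERSE-II in capitals, on the other strand in Hyou1, and that of Dnajb9 with its CCAAT box in capitals, since this window held no match to ERSE, ERSE-II or the UPRE letters TGACGTGG.
Hyou1, chr8:53602774-53602824, + strand: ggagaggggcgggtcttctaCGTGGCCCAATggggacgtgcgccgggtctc
Herpud1, chr19:10614801-10614851, - strand: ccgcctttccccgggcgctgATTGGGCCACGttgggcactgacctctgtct
Dnajb9, chr6:67002052-67002173, - strand: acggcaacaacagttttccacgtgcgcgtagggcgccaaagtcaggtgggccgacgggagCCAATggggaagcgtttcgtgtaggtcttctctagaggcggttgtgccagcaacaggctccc

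On the cytosolic and mitochondrial side, heat shock elements are alternating repeats of GAA and TTC. A run of 3 units, TTCNNGAANNTTC or GAANNTTCNNGAA, stood in 0.798% of all promoters and in those of Dnaja1, Hsph1, Hspd1 and Hspe1. The shorter pair GAANNTTC, which every run of 3 units contains, stood in 8.59% of all promoters, Hspb8 and Dnajb1 included. Of the 53 matched members 11 held it, namely 7 of 21 cytosolic, 3 of 6 mitochondrial and 1 of 19 ER members. Hspd1 and Hspe1 start 289 bases apart in opposite directions, so their windows share 1 element. Units are in capitals.
Hsph1, chr12:10427312-10427364, + strand: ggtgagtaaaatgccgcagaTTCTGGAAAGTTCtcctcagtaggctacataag
Hspe1, chr9:64084256-64084285, + strand: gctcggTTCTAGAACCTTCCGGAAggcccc
Hspb8, chr12:45837265-45837307, + strand: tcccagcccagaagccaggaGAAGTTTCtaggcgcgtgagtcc
A match is a description of letters in the window and shows no binding.

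Reads recovered from the steps of the RPKM values numbered 2610238 to 4318141 per control liver and 3945593 to 6030028 per EtOH liver (two-sided exact permutation test, p = 0.011, n = 6 and 6). In voom on these reads, which weights each value by the precision expected at its read count, 5 members were again called lower, with Hspb8 in place of Hspa14. The hepatocyte markers were abundant, with Alb at 57999 to 92323 RPKM, and of 7 matched 1 was called higher in EtOH livers (Cps1, 488 to 661 and 714 to 948 RPKM, log2 fold change 0.58 ± 0.11, limma adjusted p = 0.022), 0 lower, and 3 were higher at an unadjusted p under 0.05. Of 7 matched Kupffer cell markers, all had log2 fold changes above 0 and 3 were called higher in EtOH livers, and their summed RPKM was 144 to 222 in control and 197 to 244 in EtOH livers. Of 8 stellate cell markers 1 was called higher (sums of 22.4 to 32.2 and 32.7 to 39.4), of 3 matched endothelial markers 1 was called higher (24.5 to 31.3 and 27.8 to 38.6), of 6 lymphocyte markers 1 was called higher (2.03 to 7.65 and 3.30 to 8.29) and of 4 matched cholangiocyte markers 0 were called (4.37 to 8.27 and 3.90 to 7.87). All 8 stellate and all 3 endothelial markers also had log2 fold changes above 0. So did 5 of 6 lymphocyte and 2 of 4 cholangiocyte markers. The lymphocyte call was Cd79a, which was listed at 0 in all 6 control livers and had 9 reads over the EtOH livers. The part of these markers in the results below was not tested.

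Of the 68 chaperone members, 5 were called lower in EtOH livers and 0 higher. They were Dnajb9 of the ER, Herpud1, Hspa14 of the cytosol, Dnajc11 of mitochondria and Dnajc12. In the coordinates of the deposited table (build not given in the sources used here) these genes lie at chromosome 6, 63583034 to 63587247 (Dnajb9), chromosome 19, 11036573 to 11046936 (Herpud1), chromosome 17, 85848593 to 85869373 (Hspa14), chromosome 5, 169163307 to 169208562 (Dnajc11), chromosome 20, 25729726 to 25751388 (Dnajc12). Calls were made with limma on quantile-normalized log2 values at an adjusted p under 0.05, and the background was 2.42% of transcripts called in either direction, 1.29% lower and 1.13% higher. Of all calls 53.4% were lower, a share that was 63.5% with median-ratio scaling, 76.3% in voom and 83.7% without normalization between livers. Voom as run here also had no normalization between livers beyond their library reads. Among transcripts with a mean of at least 1 RPKM, as 57 of the members had, 2.35% were called lower and 2.12% higher. At an unadjusted p under 0.05, 12 members were lower and 2 higher (Dnajc16 and Dnaja4), where 7.42% and 8.07% of all transcripts were. The median log2 fold change was -0.06 over the members and 0.00 over all transcripts, and 45 of 68 members lay below 0 beside 10851 of 21718 transcripts. At a mean of at least 1 RPKM, 38 of 57 members and 48.8% of all transcripts lay below 0.

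Medians by compartment are descriptions and were not tested. The 20 ER members had a median log2 fold change of 0.01, with 9 below 0 and 11 above, and 1 call. The sign of this median turned with the scaling between livers, to -0.04 with median-ratio scaling, -0.12 in voom and -0.13 without normalization. The median of all transcripts was -0.14 in voom and -0.02 without normalization. Over transcripts with a mean of at least 1 RPKM, as all 20 ER members had, it was -0.08 in both. The 28 cytosolic members had a median of -0.09 (-0.27 in voom and -0.21 without normalization), with 21 below 0 and 7 above, and 1 call. The 24 cytosolic members with a mean of at least 1 RPKM had a median of -0.15, with 19 below 0. For the 8 mitochondrial members the median was -0.10 with 5 below 0 and 1 call, and for the 11 others it was -0.13 with 9 below 0 and 1 call. The call among the others was Dnajc12, which was not counted as cytosolic.

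**Figure D1:**
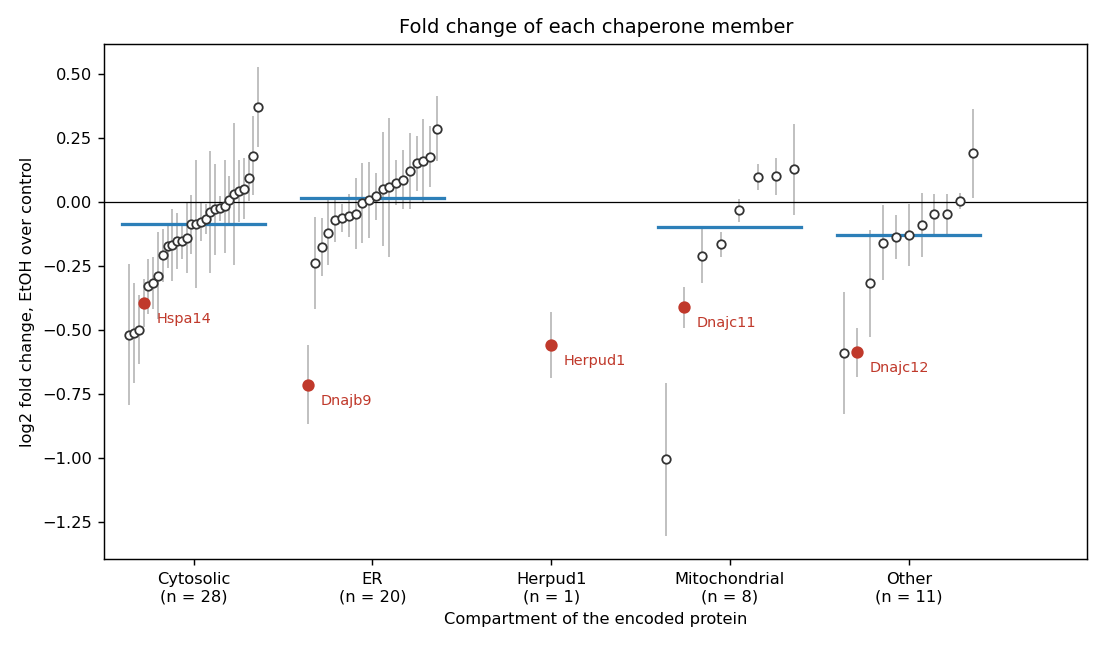
Each point is 1 of the 68 members, with its log2 fold change (EtOH over control, limma) and standard error on the y axis and the compartment of its protein on the x axis; filled red points are the 5 called members, all lower in EtOH livers, and blue lines are the class medians, 0.01 for the ER and -0.09 for the cytosol.

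Dnajb9 (ERdj4), a J-domain protein that directs misfolded ER proteins to degradation and restrains the stress sensor IRE1, showed the largest fall among the called members. Its RPKM ran from 22.8 to 46.0 with a median of 35.7 in control livers and from 14.2 to 23.5 with a median of 18.7 in EtOH livers. Control liver 6, at 22.8, was the sole control liver within the EtOH range. The means were 35.6 ± 7.64 and 19.2 ± 3.60 (SD, n = 6 each), and the log2 fold change was -0.71 ± 0.15 (SE, limma adjusted p = 0.034). The call was lost on leaving out 8 of the 12 livers in turn, with adjusted p of 0.011 to 0.077 over all 12, and the log2 fold change stayed between -0.81 and -0.62.

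Herpud1 encodes an ER membrane protein that organizes the degradation complex around the ubiquitin ligase HRD1. The lowest, median and highest RPKM were 74.6, 87.2 and 120 in control livers and 47.4, 52.2 and 78.6 in EtOH livers. EtOH liver 6, the animal with the later label, was at 78.6 while the other 5 EtOH livers lay at or below 58.2, under every control liver. The means of 92.2 ± 18.4 and 56.1 ± 11.9 gave a log2 fold change of -0.56 ± 0.13 (SE, limma adjusted p = 0.042). On leaving out each liver in turn the call was lost in 9 of 12 fits, with adjusted p of 0.024 to 0.095.

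Apart from these, the ER set did not pass the test. Hspa5 (BiP), the HSP70 of the ER lumen and the partner of Dnajb9, ranged from 403 to 580 RPKM in control livers (median 464) and from 336 to 513 in EtOH livers (median 388). The groups overlapped over most of this range, and the log2 fold change was -0.12 ± 0.13 (SE, limma adjusted p = 0.67). Hsp90b1 (GRP94), the HSP90 of the ER, was at 179 to 281 in control and 142 to 302 in EtOH livers, with medians of 216 and 223, a log2 fold change of 0.12 ± 0.15 and an adjusted p of 0.72. With its 3 transcripts summed, Hsp90b1 averaged 308 ± 32.6 and 296 ± 55.8 RPKM. Hyou1 (GRP170), the exchange factor of Hspa5, averaged 60.8 ± 10.0 and 54.6 ± 13.1 RPKM, with a log2 fold change of 0.00 and an adjusted p of 0.99.

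The lectin chaperone Calr was the most abundant member, with 475 to 542 RPKM in control livers (median 518) and 393 to 551 in EtOH livers (median 483), a log2 fold change of -0.05 ± 0.09 and an adjusted p of 0.79. The disulphide isomerase Pdia3, which works with Calr on glycoproteins, was at 352 to 405 RPKM in control and 305 to 362 in EtOH livers, and its log2 fold change was -0.06 ± 0.06 (adjusted p = 0.65). Its relative Pdia4 averaged 191 ± 16.9 and 186 ± 30.8 RPKM (0.09 ± 0.12, adjusted p = 0.74). None of these passed the test in either direction.

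Further induced ER genes gave the same count of 0 calls. Of the other J-domain partners of Hspa5, Dnajb11 had 49.8 ± 5.57 and 39.3 ± 6.86 RPKM (log2 fold change -0.18 ± 0.11, adjusted p = 0.51), and Dnajc3, which also inhibits the kinase PERK, had 115 ± 14.2 and 116 ± 13.6 (0.18 ± 0.12, adjusted p = 0.54). Creld2 had 42.2 ± 12.8 and 39.0 ± 12.0 RPKM (0.05 ± 0.22, adjusted p = 0.94). Sdf2l1, a partner of Dnajb11, had 41.0 ± 8.89 and 31.2 ± 9.12 (-0.24 ± 0.18, adjusted p = 0.59). The signs of Creld2 and Pdia4 changed with the scaling between livers and that of Hyou1 on a square-root scale, so they are given no direction. The 5 holders of an ERSE had log2 fold changes from -0.12 to 0.18, with a median of 0.05, and 0 of them were called. With its last base free, the ERSE stood in 0.314% of all promoters and in 7 members, with Pdia4 and Herpud1 added. Of these 7, Herpud1 was called. Of the 3 holders of ERSE-II, Herpud1 was called and Hyou1 and Dnajb11 were not.

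**Figure D2:**
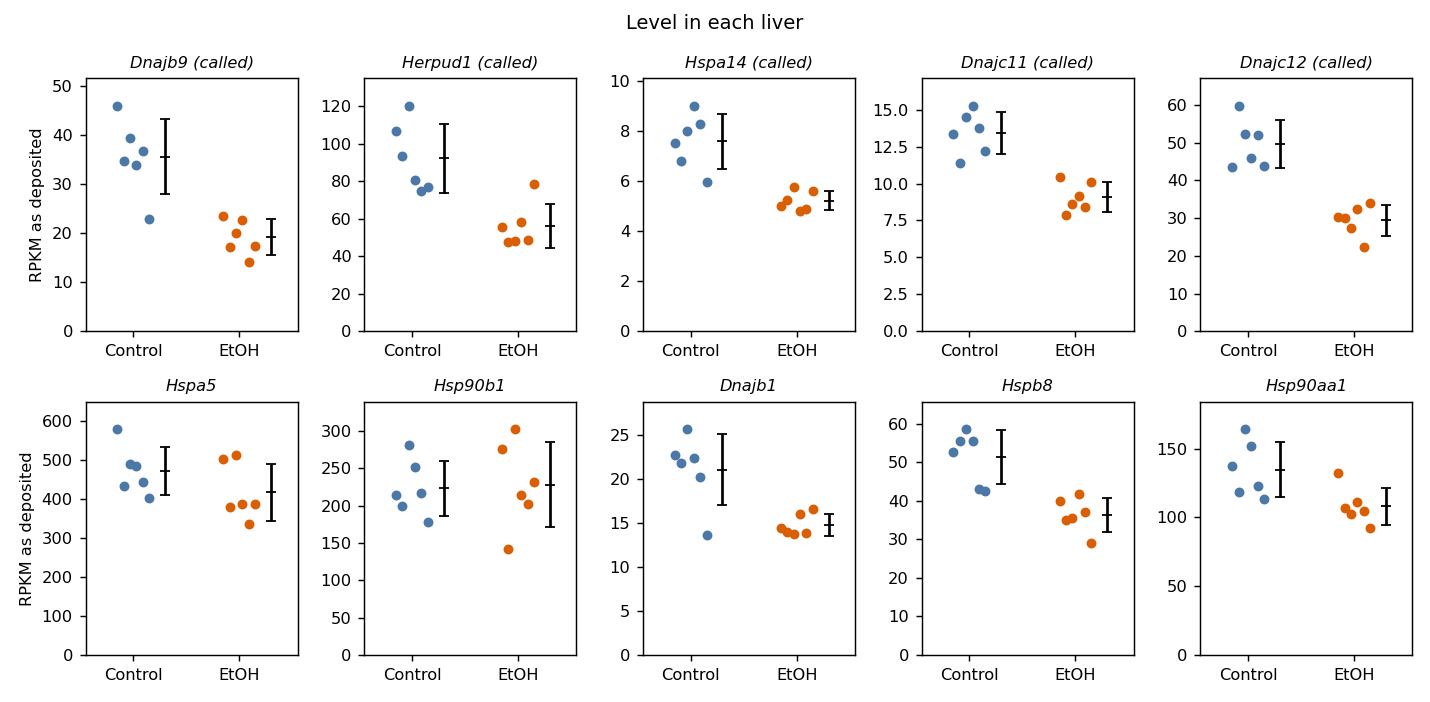
RPKM as deposited (y axis, from 0) of 10 members, 1 point per liver, with bars for the mean and SD of 6 livers; the 5 called members in the upper row sit lower in EtOH livers, with control 6 at 22.8 for Dnajb9 and EtOH 6 at 78.6 for Herpud1 as the overlapping livers, while Hspa5 and Hsp90b1 overlap widely.

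Because each liver carries its own Hspa5 value, the co-chaperones were also expressed as a share of Hspa5 or of another member of the same liver, which cancels any scaling between livers. The 6 pairs were chosen after their values had been seen, so the shares are a description. An exact permutation test was also run on them, but its p-values carry no weight for pairs chosen in this way and are not given. Dnajb9 RPKM was 5.66% to 8.30% of Hspa5 RPKM in control livers (median 7.96%) and 3.92% to 5.85% in EtOH livers (median 4.51%). The mean log2 ratio was 0.70 lower in EtOH livers, and control liver 6 was the sole control liver within the EtOH range. Herpud1 stood at 16.6% to 24.6% of Hspa5 in control and 9.38% to 20.3% in EtOH livers, with overlap. Against Dnajc3, another J-domain partner of Hspa5, Dnajb9 was 21.8% to 41.2% in control and 14.3% to 21.0% in EtOH livers, and the groups did not overlap.

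**Figure D3:**
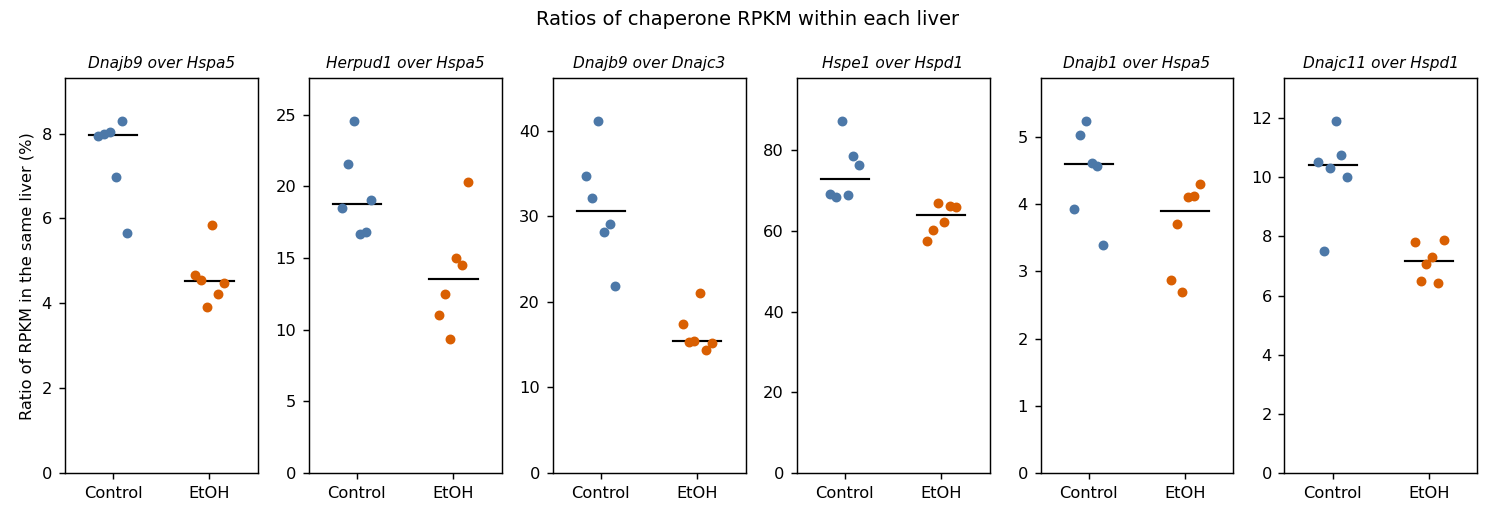
Ratio of the RPKM of 2 members in the same liver, in percent (y axis, from 0), 1 point per liver with lines at the group medians; Dnajb9 over Hspa5 had medians of 7.96% in control and 4.51% in EtOH livers, and Dnajb9 over Dnajc3 and Hspe1 over Hspd1 did not overlap between groups.

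The abundant ER chaperones varied together among the EtOH livers. Of the 12 ER members with a mean of at least 20 RPKM, 10 had EtOH livers 1 and 3 as their highest EtOH livers, namely Calr, Creld2, Dnajb11, Dnajc3, Hsp90b1, Hspa5, Hyou1, Pdia3, Pdia4 and Sdf2l1. Hspa5 was at 504 and 513 RPKM in these livers and at 336 to 389 in the other 4 EtOH livers. The same order was seen in 1 of 9 cytosolic members of that abundance (Hsph1) and in 0 of 4 mitochondrial members. Dnajb9 and Pdia5 were the ER members with another order. These are descriptions of 6 livers, chosen after the values were seen, and were not tested.

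**Figure D4:**
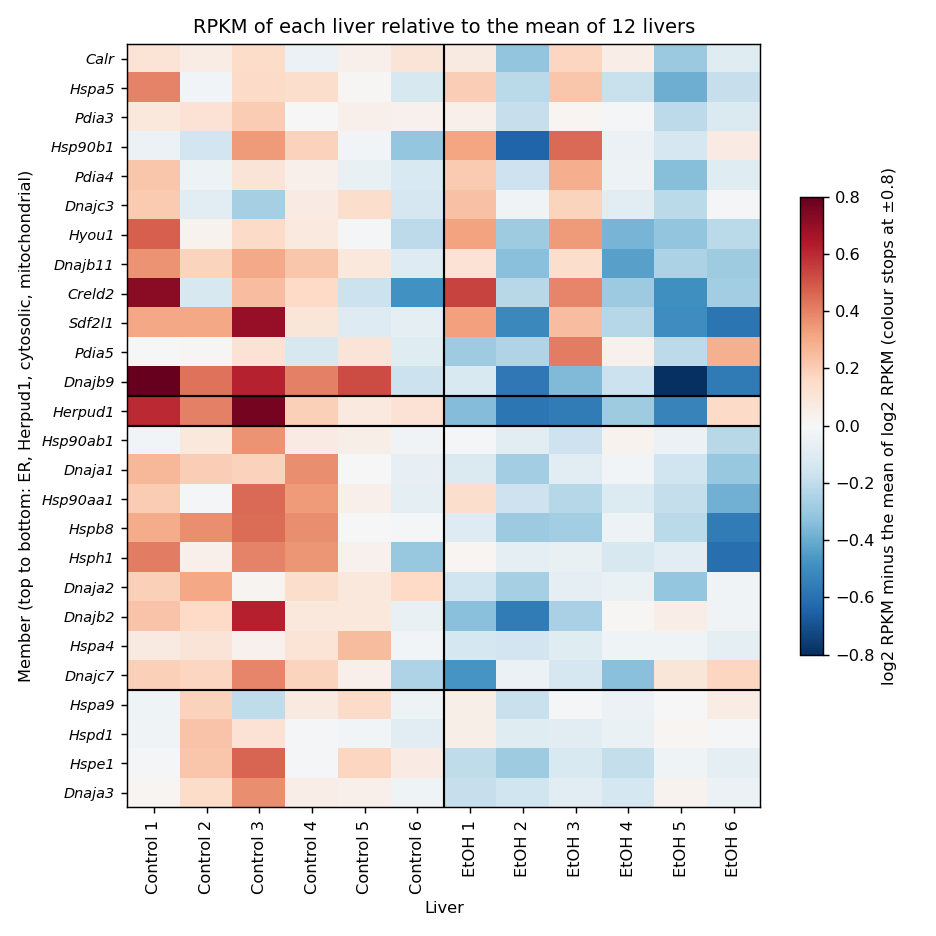
log2 RPKM of each liver (columns) minus the mean of the member over 12 livers (colour, red above and blue below) for the ER, cytosolic and mitochondrial members with a mean of at least 20 RPKM and Herpud1; EtOH 1 and EtOH 3 are the highest EtOH livers in 10 of the 12 ER rows, whereas the Dnajb9 and Herpud1 rows are mostly red in control and blue in EtOH livers.

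Among the cytosolic members Hspa14 was called. It encodes an HSP70 that works on the ribosome with the J-domain protein Dnajc2. It ran from 5.96 to 9.03 RPKM in control livers (median 7.77) and from 4.82 to 5.77 in EtOH livers (median 5.13), and no EtOH liver reached the lowest control value. The means were 7.60 ± 1.10 and 5.22 ± 0.39 from 38 to 67 reads per liver, and the log2 fold change was -0.39 ± 0.09 (SE, limma adjusted p = 0.048). The call was held in only 1 of the 12 fits that left out a liver, with adjusted p of 0.032 to 0.098. Its partner Dnajc2 averaged 6.87 ± 0.76 and 6.41 ± 0.66 RPKM (log2 fold change 0.01 ± 0.09, adjusted p = 0.98).

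The heat-inducible J-domain protein Dnajb1 (HSP40), which starts the cycle of cytosolic HSP70, was at 13.7 to 25.7 RPKM in control livers (median 22.1) and 13.8 to 16.6 in EtOH livers (median 14.3). Control liver 6 was its lowest liver of all, and the other 5 control livers lay above every EtOH liver. The log2 fold change was -0.33 ± 0.11 (limma adjusted p = 0.13). Without control liver 6 it was -0.43 and passed the test (adjusted p = 0.0070). This omission, picked after the values were seen, was the only 1 of 24 alternatives in which Dnajb1 passed. On leaving out each liver in turn, its limma adjusted p ran from 0.0070 to 0.24. Without control liver 6, 656 of all transcripts were called, against 526 with all livers. Control 6 was the lowest control liver in 8 of the 9 cytosolic members of at least 20 RPKM and in 7 of the 12 ER members.

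Hspb8, a small heat shock protein that pairs with BAG3 in chaperone-assisted autophagy, was at 42.5 to 58.5 RPKM in control livers (median 54.1) and 29.2 to 41.8 in EtOH livers (median 36.2), without overlap. Its log2 fold change was -0.32 ± 0.10 (limma adjusted p = 0.13). It passed the test in voom on recovered reads and without normalization between livers, at log2 fold changes of -0.46 (adjusted p = 0.040) and -0.49 (adjusted p = 0.023). These were the 2 of 24 alternatives in which it passed. Neither fit scales livers by more than their library reads, so they are not separate lines of evidence. Hspb1 (HSP25) was low, at 4.89 to 16.9 RPKM in control and 2.53 to 6.42 in EtOH livers, with control liver 3 at 16.9 and the next control liver at 8.36 (-0.52 ± 0.28, adjusted p = 0.41).

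The cytosolic HSP90 genes were abundant and did not pass the test. Hsp90ab1, the constitutive form, averaged 359 ± 37.6 and 319 ± 20.8 RPKM (log2 fold change -0.07 ± 0.06, adjusted p = 0.65). Hsp90aa1, the inducible form, was at 113 to 164 RPKM in control (median 130) and 92.0 to 132 in EtOH livers (median 106), with a log2 fold change of -0.15 ± 0.11 and an adjusted p of 0.56. Hsph1 (HSP110), an exchange factor for HSP70, averaged 37.8 ± 7.01 and 30.3 ± 4.21 RPKM (-0.14 ± 0.14, adjusted p = 0.65).

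The J-domain genes Dnaja1 and Dnaja2, partners of constitutive HSP70, averaged 151 ± 16.9 and 121 ± 9.08 RPKM, and 31.5 ± 2.17 and 25.5 ± 2.03 RPKM. The Dnaja2 groups did not overlap (28.7 to 35.1 and 22.8 to 27.7), yet after quantile normalization the log2 fold changes were -0.17 ± 0.09 (adjusted p = 0.39) for Dnaja1 and -0.15 ± 0.07 (adjusted p = 0.33) for Dnaja2. Hspa4, an HSP70 exchange factor, was at 23.8 to 28.8 RPKM in control and 21.7 to 23.7 in EtOH livers, again without overlap, with a log2 fold change of -0.03 ± 0.05 (adjusted p = 0.84). Hspa1a, the classical heat-inducible HSP70, was low, at 1.29 to 4.70 and 1.64 to 3.06 RPKM (15 to 46 reads per liver, log2 fold change -0.09 ± 0.25, adjusted p = 0.90), and Dnajb4 was at 3.74 to 9.86 and 4.11 to 8.36 RPKM (-0.04 ± 0.24, adjusted p = 0.95). Hspa1a has a near-identical neighbour gene, and the assignment of shared reads was not described in the methods used here.

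Values as deposited leaned lower in EtOH livers over the whole table, which bears on each non-overlap of RPKM. The median log2 ratio of mean RPKM was -0.07 over all transcripts and -0.18 over the members. A lower EtOH mean was seen in 54 of 68 members and in 11771 of 21718 transcripts. At a mean of at least 1 RPKM the medians were -0.10 over all transcripts and -0.19 over the members. For 7 members the groups did not overlap: these had every EtOH liver below every control liver (Dnaja2, Dnajc11, Dnajc12, Hspa14, Hspa4, Hspb8 and Hspe1) and 0 had every EtOH liver above. This held for 2.43% of all transcripts below and 0.677% above, and for 4.67% of those with a mean of at least 1 RPKM below.

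Summed over the 28 cytosolic members, RPKM was 829 to 1101 per control liver (mean 955 ± 91.3) and 725 to 842 per EtOH liver (mean 792 ± 44.8), so that 1 control liver, number 6, lay within the EtOH range. Summed over the 20 ER members it was 2024 to 2445 in control (mean 2226 ± 156) and 1731 to 2430 in EtOH livers (mean 2041 ± 292), with EtOH livers 1 and 3 among the control values. The cytosolic sum was 42.9% ± 2.59 of the ER sum in control and 39.4% ± 5.62 in EtOH livers, which overlap. Hspa8, Hspa1b, Pdia6, Manf and Canx are not in these sums, nor is the ER folding enzyme P4hb (mean of 500 RPKM), which lies outside the naming rule. Dnajc12, kept outside the cytosolic class, is also left out. The share therefore describes the members of these classes only and not all chaperones of either compartment. The spread of this share among EtOH livers, 31.6% to 46.5%, covered the whole control range of 39.4% to 46.4%.

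**Figure D5:**
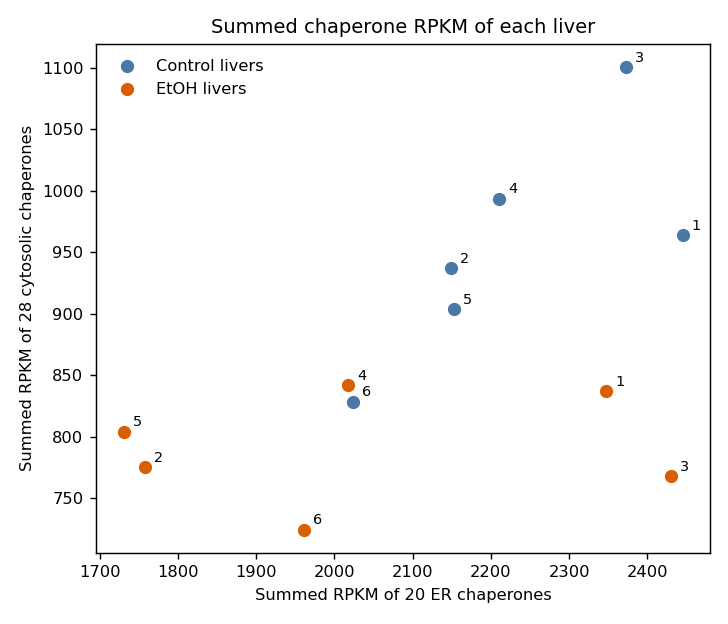
Summed RPKM of the 28 cytosolic (y axis) and 20 ER chaperones (x axis), 1 point per liver with its animal number, both axes cut above 0; EtOH livers 1 and 3 lie at the right with ER sums in the range of control livers and cytosolic sums below 842.

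In mitochondria Dnajc11, a protein of the outer membrane linked to the assembly of cristae, was called. It was at 11.4 to 15.3 RPKM in control livers (median 13.5) and 7.90 to 10.5 in EtOH livers (median 8.89), and the groups did not overlap. The means of 13.4 ± 1.44 and 9.11 ± 1.01 gave a log2 fold change of -0.41 ± 0.08 (SE, limma adjusted p = 0.022). The call was lost without EtOH liver 2 (adjusted p = 0.056) or EtOH liver 3 (adjusted p = 0.052) and kept without each of the other 10.

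The mitochondrial folding chamber is built from Hspd1 (HSP60) and its lid Hspe1 (HSP10). Hspd1 was at 122 to 152 RPKM in control and 121 to 134 in EtOH livers (log2 fold change 0.10 ± 0.05, adjusted p = 0.41). Hspe1 was at 87.9 to 123 RPKM in control (median 96.7) and 73.0 to 86.8 in EtOH livers (median 79.9), without overlap, with a log2 fold change of -0.16 ± 0.05 and a limma adjusted p of 0.11. Hspe1 was 68.3% to 87.3% of Hspd1 in control and 57.5% to 66.9% in EtOH livers with this transcript of Hspd1, without overlap. The heat shock element shown above lies between the starts of these genes. With the 2 Hspd1 transcripts summed, the shares were 52.8% to 66.9% and 43.4% to 53.9%, and the groups overlapped.

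Dnajc11 as a share of Hspd1 was 7.49% to 11.9% in control and 6.42% to 7.88% in EtOH livers, and Dnajb1 as a share of Hspa5 was 3.39% to 5.24% and 2.69% to 4.30%, and the groups overlapped in both. Hspa9 (mortalin), the HSP70 of the matrix, averaged 140 ± 13.7 and 135 ± 7.96 RPKM (0.10 ± 0.07, adjusted p = 0.58), and its partner Dnaja3 43.5 ± 4.61 and 37.8 ± 2.11 (-0.03 ± 0.05, adjusted p = 0.75). Fitted signs of Hspd1 and Hspa9 turned in voom and without normalization between livers, so they have no direction.

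Dnajc12 gave the smallest adjusted p of the set. It encodes a J-domain protein that binds the aromatic amino acid hydroxylases, phenylalanine hydroxylase of the liver among them, and HSP70. The lowest, median and highest RPKM were 43.5, 49.0 and 59.9 in control livers and 22.3, 30.2 and 33.9 in EtOH livers, without overlap. The means of 49.6 ± 6.36 and 29.4 ± 4.13 gave a log2 fold change of -0.59 ± 0.09 (SE, limma adjusted p = 0.0097). The call held without each of the 12 livers in turn, with adjusted p of 0.0077 to 0.026.

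The members not described above were called in 0 cases, and their log2 fold changes ran from -1.0 ± 0.30 for Dnajc30, with 28 control and 16 EtOH reads in all (limma adjusted p = 0.11), to 0.37 ± 0.16 for Dnaja4 (adjusted p = 0.28). Both were picked out after their values were seen. At the low end, Dnajc6, Dnajb7, Hspb7, Hspb9 and Dnajc5b were above 0 in 1 liver each, just inside the limit of an RPKM above 0. Their read counts are not known, since the recovery gives 1 read to any transcript above 0 in only 1 liver. Dnajb3, Dnajb8, Dnajc5g, Hspb3, Hspd1-ps2 and Pdia2 were listed at 0 in every liver, just outside it. Of the 11 members with a mean below 1 RPKM, 0 were called. The genes Hspa8, Hspa1b, Pdia6, Xbp1, Canx and Manf were not analysed here under these names.

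Genes around the chaperones were read off the same fit. All matched genes of both lists below had a mean of at least 1 RPKM, where 2.35% of all transcripts were called lower and 48.8% lay below 0. Calls made up 3.85% of the matched cytosolic list and 2.7% of the matched ER list, near that share. Of 28 cytosolic co-chaperones and heat shock factors, 26 were matched, 1 was called lower, 0 higher, and 22 had log2 fold changes below 0, with a median of -0.21. The call was Unc45a, a co-chaperone of HSP90 and myosin, at 6.70 to 9.93 RPKM in control and 4.34 to 5.64 in EtOH livers (log2 fold change -0.55 ± 0.12, limma adjusted p = 0.033, lost on leaving out 10 of the 12 livers in turn). Of 43 ER folding enzymes, degradation factors and stress sensors, 37 were matched, 1 was called lower, 0 higher, and 20 were below 0, with a median of 0.00. The call was Sec61a1, the channel of the ER translocon, at 105 to 127 RPKM in control and 80.8 to 96.9 in EtOH livers (-0.25 ± 0.05, limma adjusted p = 0.032, lost on leaving out 8 of the 12 livers in turn).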

How the data were processed

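The authors mapped 101-nucleotide paired-end reads of 12 livers with CLCbio Genomics Workbench 4.9 and deposited RPKM values per transcript and liver. The sources used here name no genome build for the table. Further deposited columns hold the authors' comparison (a fold change, its test and FDR) and were not used. RPKM levels are printed as deposited.

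For tests, log2(RPKM + 0.5) was quantile normalized between livers, as the study did on a square-root scale, and fitted with limma 3.58.1 (R 4.3.3) with a mean-variance trend. All 21718 transcripts above 0 in at least 1 liver were fitted, and p-values were adjusted over all of them by Benjamini-Hochberg with a threshold of 0.05. Fold changes on the log2(RPKM + 0.5) scale understate the change of low transcripts. Whole reads were recovered from the RPKM steps for all 21718 transcripts within 0.01 reads, and voom was run on them as an alternative. Voom had no normalization between livers beyond the total reads of each liver. The recovered reads are the smallest whole numbers that give the ratios between livers. A transcript above 0 in only 1 liver therefore gets 1 read, whatever its true count. Recovered reads numbered 2610238 to 6030028 per liver, and counting error limits members with few reads. Reads per liver were compared with the exact permutation test (two-sided, 924 regroupings). The animals are separate rats, and all replicates entered.

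Members and gene lists were chosen with earlier results of these data known. Members named are those called, those without overlap, the 5 with the highest mean RPKM, a panel of defining chaperones, and called genes of the surrounding lists. Others are named after their values were seen. Symbols were matched by name or older symbol, and promoters are RefSeq windows on GRCr8, used for no coordinates of the table. A comparison of protein ends was not made, since no protein sequence was used here. Alternatives were pseudocounts, scalings, filters, transcript sums, the replicate block and leaving out livers, and other steps used scipy 1.17.1, pandas 2.3.3 and numpy 2.4.6 in Python 3.11.15.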

Additional observations from a re-analysis of the deposited data

Results flagged for a closer look

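Of 72 sets of 6 livers of members examined for 1 liver far from the others, 4 were singled out. Chance would single out about 1 in 20 sets, so this count is near that of chance. In control liver 3, Hsp90ab1 was at 432 RPKM with the next control liver at 357, and Hspb1 was at 16.9 with the next at 8.36. In EtOH liver 6, Herpud1 was at 78.6 RPKM with the next EtOH liver at 58.2, and Hsph1 was at 21.9 RPKM, the lowest EtOH value, with the next at 30.5. The animal of EtOH liver 6 is the 1 whose label gives 39 weeks. The cause of these values was not tested.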

How the results depend on the processing

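Of the 5 called members, Dnajc12 and Dnajc11 were called under every alternative that kept all 12 livers except the replicate block. The number of members called, 5, was 9 without normalization between livers (2.98% of all transcripts lower), 2 in the unmoderated pooled test on square roots, 1 with the replicate block and 1 to 7 on leaving out each liver. Without normalization the calls added were Dnaja1, Dnaja2, Dnajc8 and Hspb8, and 83.7% of all calls were lower against 53.4% in the main comparison, 63.5% with median-ratio scaling and 76.3% in voom. Voom moved the median of all transcripts to -0.14. The 526 called transcripts became 977 with transcripts summed per gene, 860 at a mean RPKM of at least 1, 322 in the pooled test, 113 with the replicate block and 212 to 656 on leaving out livers. Called cytosolic members, 1, became 2 with transcript sums, 2 at a mean RPKM of at least 1, 2 with median-ratio scaling, 5 without normalization, 0 on square roots in either test, 0 with the replicate block and 0 to 3 on leaving out livers. ER calls, 1, were 0 in the pooled test and 0 to 1 on leaving out livers, and mitochondrial calls, 1, were 2 with transcript sums, 0 with the replicate block and 0 to 2 on leaving out livers. The cytosolic median was -0.27 in voom and -0.21 without normalization (leaving out livers, -0.14 to -0.07), the mitochondrial median was -0.23, -0.25 and, with median-ratio scaling, -0.16, and the ER median, 0.01, turned to -0.12, -0.13 and -0.04 (leaving out livers, -0.04 to 0.05). Signs turned for Creld2 (voom -0.0602, median-ratio -0.0215, none -0.11, leaving out livers -0.0713 to 0.20), Hspa9 (voom -0.0295, none -0.0424), Hspd1 (voom -0.047, none -0.0612), Pdia4 (voom -0.0177, none -0.0484), Hyou1 (0.0126 in both square-root tests, leaving out livers -0.0967 to 0.0876), Dnajb4 (-0.16 to 0.08) and Hspa1a (-0.23 to 0.06). The cause of these shifts was not tested.

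The animal numbers do not pair the livers: deviations of same-numbered livers correlated from -0.07 to 0.03, and 1 of 6 livers correlated best with its own number. With the number as a block, Dnajb9 stayed called, and the adjusted p was 0.059 for Dnajc12, 0.077 for Dnajc11, 0.12 for Herpud1 and 0.16 for Hspa14.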

Other observations

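Manf and calnexin, further ER chaperones, are listed under protein entry names outside the naming rule, and their values were looked up after the others had been seen. MANF_RAT (mesencephalic astrocyte-derived neurotrophic factor, an ER-resident partner of Hspa5) was at 145 to 206 RPKM in control livers and 91.8 to 161 in EtOH livers, with a log2 fold change of -0.35 ± 0.14 (limma adjusted p = 0.23). CALX_RAT (calnexin, the membrane-bound relative of Calr) was at 110 to 132 and 109 to 128 RPKM (0.09 ± 0.07, adjusted p = 0.64).

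Bag3, the partner of Hspb8 and a target of HSF1, averaged 19.2 ± 3.28 RPKM in control and 11.6 ± 2.60 in EtOH livers (log2 fold change -0.58 ± 0.14, limma adjusted p = 0.054). Control liver 6 was at 14.1 and EtOH liver 6 at 15.4, and these 2 livers made the groups overlap.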
